A study of Mus musculus with 2 samples.

Results

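The replication-dependent histone genes encode the linker histone H1 and the core histones H2A, H2B, H3 and H4 that package newly copied DNA. They were taken from the table by symbol, as every gene named Hist1 to Hist4 followed by a histone class. This rule gave 70 of 50508 genes. H1 had 6 genes, H2A 20, H2B 19, H3 12 and H4 13. By cluster, 56 belonged to Hist1 on chromosome 13, 10 to Hist2 on chromosome 3, 3 to Hist3 on chromosome 11 and 1 to Hist4 on chromosome 6.

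The cells were E14, mouse embryonic stem cells of strain 129/Ola, used between passages 15 and 18. They were transfected with siRNA against Mettl8 or with scramble siRNA, and their RNA was taken 72 h later. All cells grew on gelatin-coated plates in medium with 15% serum and LIF at 1000 U/ml, a cytokine that holds back their differentiation. Each group had 1 library, so no value has a replicate error and no difference between the groups could be tested. The series record mentions triplicates, and whether a column pools several cultures is not given in the sources used here. Mettl8 itself had 100.3 FPKM in the library labelled Mettl8 siRNA, against 0.67 FPKM in the library labelled scramble siRNA. That goes against a knockdown, so the groups are named by their labels throughout and every direction holds for these labels only.

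Most of these genes have no introns, and most of their mRNAs end in a conserved stem-loop in place of a poly(A) tail. The stem-loop-binding protein SLBP and the U7 small nuclear ribonucleoprotein direct its cleavage, and the mRNAs accumulate in S phase and are degraded when DNA synthesis stops. Mouse embryonic stem cells spend much of their cycle in S phase. In RNA from whole cultures, fewer cells in S phase and less histone mRNA per cell cannot be told apart.

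The stem-loop at the mRNA end is what sets this family apart in sequence, and a set of members with its different forms is shown. It was searched in the transcript models of GENCODE M21 on GRCm38, the assembly also called mm10. The search used the letters GGNNCTTNNNAGNNCC on the transcript strand after the stop codon, with the strands of the stem complementary. A stem of 6 bases and a loop of 4 was found in 45 of the 70 models. Capitals mark the 16 bases of stem, loop and stem, written as DNA from 5′ to 3′ on the gene's own strand.
Hist1h1d, chr13:23555782-23555807, plus strand: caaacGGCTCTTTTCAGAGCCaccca
Hist1h2ab, chr13:23751567-23751592, plus strand: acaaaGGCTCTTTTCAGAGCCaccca
Hist2h2ac, chr3:96220413-96220438, minus strand: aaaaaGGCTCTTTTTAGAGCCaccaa
Hist1h2bb, chr13:23747198-23747223, plus strand: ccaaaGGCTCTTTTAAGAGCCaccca
Hist1h3b, chr13:23752815-23752840, plus strand: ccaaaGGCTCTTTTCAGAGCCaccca
Hist1h3g, chr13:23535884-23535909, plus strand: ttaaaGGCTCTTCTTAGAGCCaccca
Hist1h4a, chr13:23760795-23760820, minus strand: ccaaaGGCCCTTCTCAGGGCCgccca
Hist1h4b, chr13:23757361-23757386, plus strand: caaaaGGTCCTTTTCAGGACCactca
Hist1h4d, chr13:23581945-23581970, plus strand: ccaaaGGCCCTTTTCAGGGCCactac
Hist4h4, chr6:136803993-136804018, minus strand: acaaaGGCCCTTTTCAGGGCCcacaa
The stem split by class. All 33 stems found in H1, H2A, H2B and H3 genes read GGCTCT, whereas 10 of the 12 found in H4 genes read GGCCCT and the other two read GGTCCT. The loop was TTTC in 34 genes, TTTA in 6, TTTT in 3, and TCTC and TCTT in 1 gene each. The stem-loop began 21 to 58 bases after the stop codon, with a median of 31. Of the 25 models without it, 18 ended at or near the stop codon or had no coding sequence. Those that ended near the stop codon had a window too short to hold it. The 3 without a coding sequence, all pseudogenes, were searched over the whole transcript. The same letters occurred in any transcript of 72 of 21901 protein-coding genes, or 0.329%, of which 46 were histone genes of the rule.

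The stem-loop is not the only end in these models. In 14 of the 45 GENCODE M21 models the transcript ran on past the loop and held the poly(A) signal AATAAA there, as in Hist1h1c, Hist2h4 and Hist4h4. The gene length in the table differed from the M21 exons in 22 of 70 members and was shorter in most of these. Whether the libraries were made from poly(A)-selected RNA is not given in the sources used here. The level of a histone gene relative to other genes therefore depends on a step that is unknown, and histone genes are compared mainly with each other. The models were single-exon in 65 of 70 members and predicted 30 distinct proteins. All 13 H4 genes predicted the same protein.

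Expression is given as deposited, in FPKM, a read count divided by gene length and by library size. The values fell on whole multiples of 1 read, from which the reads behind each value were rebuilt. The histone genes held 84676 reads in the library labelled Mettl8 siRNA and 91614 in the library labelled scramble siRNA. Without the 3 members that M21 annotates as pseudogenes, they took 0.604% of the 13.8 M reads in protein-coding genes in the library labelled Mettl8 siRNA and 0.645% of the 14.0 M in the library labelled scramble siRNA. Intervals are exact 95% intervals from these reads and cover counting error only. All 7 stem cell markers checked lay between 45.5 and 174.5 FPKM, and none of 4 fibroblast markers reached 1 FPKM.

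Of the 70 members, 64 had a mean of at least 1 FPKM over both libraries and are called measured. Below it lay Hist1h2aj, Hist1h2ao, Hist1h2ap, Hist1h2bq, Hist1h2br and Hist2h2be, the last an H2B gene known from mouse olfactory neurons. Their highest value was 0.97 FPKM, Hist1h2ao in the library labelled Mettl8 siRNA, against 0.88 FPKM in the library labelled scramble siRNA. Hist1h2ao, Hist1h2ap, Hist1h2bq and Hist1h2br form head-to-head pairs of near-identical copies, in which 100% of the 50-base windows of the coding sequence also occur in other genes. How reads that match several copies were treated is not given, so their low values are uncertain.

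The family was dominated by a few genes, and the same genes led in both libraries. The H2B gene Hist2h2bb had the highest level of all members, with 698.7 FPKM in the library labelled Mettl8 siRNA and 691.6 FPKM in the library labelled scramble siRNA. The H1 gene Hist1h1a followed with 483.4 and 466.8 FPKM, and the H4 gene Hist1h4d with 318.0 and 342.0 FPKM, in the same order of libraries. Hist1h1d had 263.1 FPKM in the library labelled Mettl8 siRNA and 292.5 FPKM in the library labelled scramble siRNA. The leading ranks differ by more than counting error. In the library labelled Mettl8 siRNA, the interval of Hist2h2bb was 682.8 to 714.8 FPKM and that of Hist1h1a 473.2 to 493.7 FPKM. Hist2h2bb and Hist1h1a shared none of their 50-base coding windows with other genes, against a median of 73.4% over the 70 members. How reads that match several copies were treated is not given, so the ranks are uncertain beyond counting error. The Hist2h2bb value has a further limit, since the antisense gene Gm20628 and the lincRNA Gm42743 on its own strand overlap it.

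**Figure D1:**
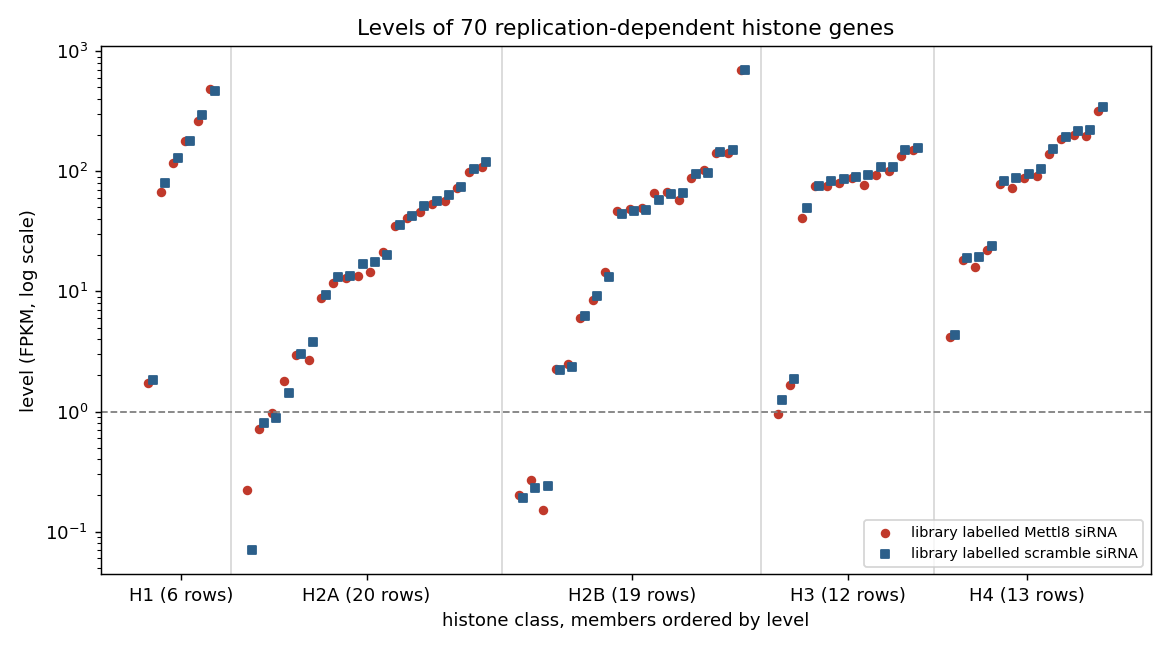
FPKM of the 70 histone genes on a log axis, grouped by class, with the library labelled Mettl8 siRNA left of the library labelled scramble siRNA. Points are single libraries without replicates, and the members span from under 1 FPKM to 698.7 FPKM (Hist2h2bb).

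Differences below subtract the library labelled scramble siRNA from the library labelled Mettl8 siRNA on the scale log2(FPKM + 1), which draws genes of low FPKM closer to 0. The histone genes were slightly lower in the library labelled Mettl8 siRNA as a family. Of 64 measured members, 49 were lower and 15 higher, with a median difference of -0.09 and a range of -0.38 to 0.19. Over all measured genes of the table, 45% were lower and 54.1% higher, with a median of 0.01. No member was at least 1.5-fold apart, a size reached by 2.11% of all measured genes. Among 386 other protein-coding genes shorter than 1000 bases, 53.9% were lower, 45.9% were higher and the median was -0.02. Among 2882 protein-coding genes with a mean of at least 10 FPKM, 36.3% were lower, 63.2% were higher and the median was 0.03. Other measured protein-coding genes rich in GC were mostly lower too. At 60 to 65% GC of the transcript, 72.3% of 383 were lower, with a median of -0.07. At 65 to 80%, 68.3% of 41 were lower, with a median of -0.13. The histone reads summed over all 70 members and scaled to depth gave a ratio of 0.946 (0.937 to 0.955). The sign of the family difference, though not the place of its median below that of all measured genes, depends on the scaling. With both libraries rescaled to the same sum of FPKM, which moved the median of all genes to 0.09, the median of the members was 0.0035 and the summed ratio 1.01.

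In most members the difference lay within counting error. The interval of the ratio lay below 1 in 22 members and above 1 in 2. Over all measured genes it lay below 1 in 7.85% and above 1 in 11.6%. By these intervals the higher members were Hist1h1a and Hist1h2bh only. The width of an interval depends on the reads of a gene, and such intervals leave out the variation between cultures.

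**Figure D2:**
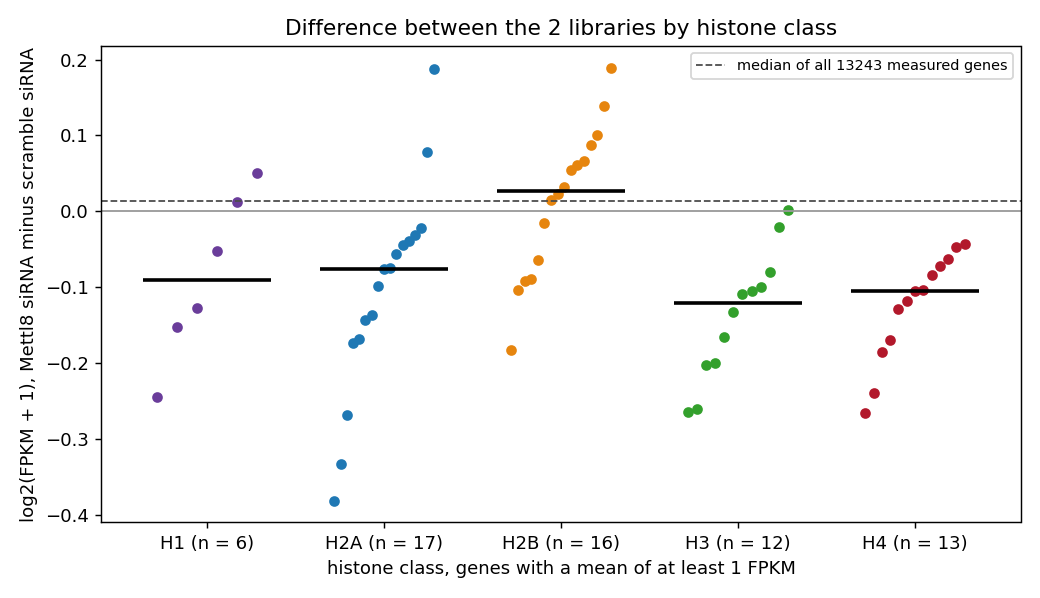
Difference of each measured histone gene in log2(FPKM + 1), the library labelled Mettl8 siRNA minus the library labelled scramble siRNA, by class, with the class median and the median of all measured genes as lines. H2B is centred above 0 (median 0.03) and the other classes below it (medians -0.08 to -0.12), and with the libraries rescaled to the same sum of FPKM the H2A median turns to 0.01.

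The H1 genes encode the linker histones that bind where DNA enters and leaves the nucleosome. They split into higher and lower members. Hist1h1a had 483.4 FPKM in the library labelled Mettl8 siRNA against 466.8 FPKM in the library labelled scramble siRNA, a ratio of 1.04 (1.00 to 1.07). Hist1h1b had 179.4 FPKM against 177.8 FPKM, a ratio of 1.01 (0.964 to 1.06). These were the higher H1 genes. The other somatic ones were lower, each with an interval below 1. Hist1h1c had 117.5 FPKM in the library labelled Mettl8 siRNA and 128.4 FPKM in the library labelled scramble siRNA. Hist1h1d had a ratio of 0.899 (0.867 to 0.933). Hist1h1e had 67.2 FPKM in the library labelled Mettl8 siRNA and 79.8 FPKM in the library labelled scramble siRNA, a ratio of 0.842 (0.784 to 0.904). Hist1h1a and Hist1h1b shared none of their 50-base coding windows with other genes, whereas the lower Hist1h1c, Hist1h1d and Hist1h1e shared 21.86%, 26.4% and 25.4%. The part of shared sequence in this split was not tested. Hist1h1e partly overlaps the long model of Hist1h2be. Hist1h1t, the testis H1, had 1.73 FPKM and 1.83 FPKM from 35 and 38 reads. The class summed to 24315 reads in the library labelled Mettl8 siRNA and 25924 in the library labelled scramble siRNA, a depth-scaled ratio of 0.960 (0.943 to 0.977) that turned to 1.02 with equal sums of FPKM.

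H2A and H2B form the dimers that flank the central tetramer of the nucleosome. Of 17 measured H2A genes, 15 were lower and 2 higher, with a median of -0.08. Their summed level, 603 FPKM in the library labelled Mettl8 siRNA and 650 FPKM in the library labelled scramble siRNA, was the lowest of the core classes. All 20 genes held 7752 reads in the library labelled Mettl8 siRNA and 8513 in the library labelled scramble siRNA, a depth-scaled ratio of 0.932 (0.903 to 0.961). Hist1h2al, annotated as a pseudogene in GENCODE M21, had the highest H2A level, 108.6 FPKM in the library labelled Mettl8 siRNA and 119.5 FPKM in the library labelled scramble siRNA. Hist1h2ak had 98.3 and 105.3 FPKM and Hist1h2ab 72.3 and 74.6 FPKM, with the library labelled Mettl8 siRNA given before the library labelled scramble siRNA. All 3 were lower in the library labelled Mettl8 siRNA, by no more than 0.14 on the log2 scale.

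The largest H2A differences belonged to genes of low level. Hist1h2ad had 13.4 FPKM in the library labelled Mettl8 siRNA against 17.1 FPKM in the library labelled scramble siRNA, from 172 and 225 reads, a ratio of 0.782 (0.638 to 0.958). Hist1h2ag had 14.4 FPKM against 17.5 FPKM, a ratio of 0.820 (0.676 to 0.995). Hist1h2aa, known from testis, had 2.67 FPKM against 3.78 FPKM, from 29 and 42 reads, and its interval of 0.424 to 1.16 spans 1. The higher H2A genes were Hist1h2ah, with 21.5 FPKM against 20.3 FPKM, and Hist2h2aa1, with 1.78 FPKM against 1.44 FPKM from 29 and 24 reads. Both intervals span 1. Other genes held 100% of the coding windows of the lower Hist1h2ad and Hist1h2ag and of the higher Hist2h2aa1. They held 95.6% of those of Hist1h2ah and 2.35% of those of Hist1h2aa.

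H2B was the class nearest to the rest of the table. Of its 16 measured genes, 10 stood higher and 6 lower (62.5% higher, median 0.03). Over all measured genes 54.1% were higher with a median of 0.01, and among protein-coding genes of at least 10 FPKM 63.2% with a median of 0.03. Of the 48 measured genes of the other classes, 43 were lower. The class held 18932 reads in the library labelled Mettl8 siRNA and 19417 in the library labelled scramble siRNA, a depth-scaled ratio of 0.998 (0.978 to 1.02). The interval lies above those of H2A, H3 and H4, which ended at 0.961, 0.937 and 0.928. With the libraries rescaled to the same sum of FPKM, the H2B ratio was 1.06 and still the highest of the classes, above 1.02 for H1, 0.994 for H2A, 0.977 for H3 and 0.971 for H4. Without replicates, a difference between classes could not be tested against the spread between cultures.

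Within H2B, Hist2h2bb took 7405 of the 18932 reads in the library labelled Mettl8 siRNA and 7500 of the 19417 in the library labelled scramble siRNA. Its ratio was 1.01 (0.978 to 1.04). The next by mean level over both libraries were Hist1h2bg, with 142.2 FPKM in the library labelled Mettl8 siRNA and 151.7 FPKM in the library labelled scramble siRNA, then Hist1h2bb, with 143.4 and 145.0 FPKM in the same order. Hist1h2bh had 66.4 FPKM in the library labelled Mettl8 siRNA and 58.1 FPKM in the library labelled scramble siRNA, a ratio of 1.14 (1.03 to 1.27), and was the H2B gene whose interval lay above 1. Hist1h2bp had 14.5 FPKM against 13.1 FPKM, Hist1h2bn 103.0 FPKM against 96.0 FPKM and Hist1h2bj 46.6 FPKM against 43.8 FPKM, all higher with intervals that span 1. The lowest H2B difference was that of Hist1h2bc, with 58.0 FPKM against 65.97 FPKM and a ratio of 0.880 (0.813 to 0.951). Hist1h2ba, the testis H2B, had 2.25 FPKM and 2.20 FPKM from 24 reads in each library.

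Many H2A and H2B genes lie head to head and share the DNA between their starts. The annotation held 14 such pairs, with 173 to 306 bases between the starts. In 10 pairs both genes were measured. The H2B difference lay above that of its H2A partner in 8 of these 10, and in 6 the H2B gene was higher while the H2A gene was lower. In the whole classes, 62.5% of measured H2B genes were higher and 88.2% of measured H2A genes were lower. Whether pairs differ beyond these class shares was not tested. In all 6 the interval of the H2B gene spans 1, and they include the low Hist1h2ba and the pseudogene Hist3h2bb-ps. Both genes were lower in 3 pairs. The medians over the 10 pairs were 0.06 for H2B and -0.16 for H2A. The pair Hist1h2bn and Hist1h2ak is an example with many reads. Hist1h2bn had 1092 reads in the library labelled Mettl8 siRNA and 1041 in the library labelled scramble siRNA, and Hist1h2ak had 1075 and 1178. Even so, both ratio intervals span 1, with 0.985 to 1.17 for Hist1h2bn and 0.859 to 1.02 for Hist1h2ak. Levels within a pair differed too. Hist1h2bg had 142.2 FPKM against 45.6 FPKM for its partner Hist1h2ae in the library labelled Mettl8 siRNA. Hist2h2ac had 504 reads there against 20 reads for its partner Hist2h2be, whose deposited length of 2620 bases makes its FPKM not comparable.

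**Figure D3:**
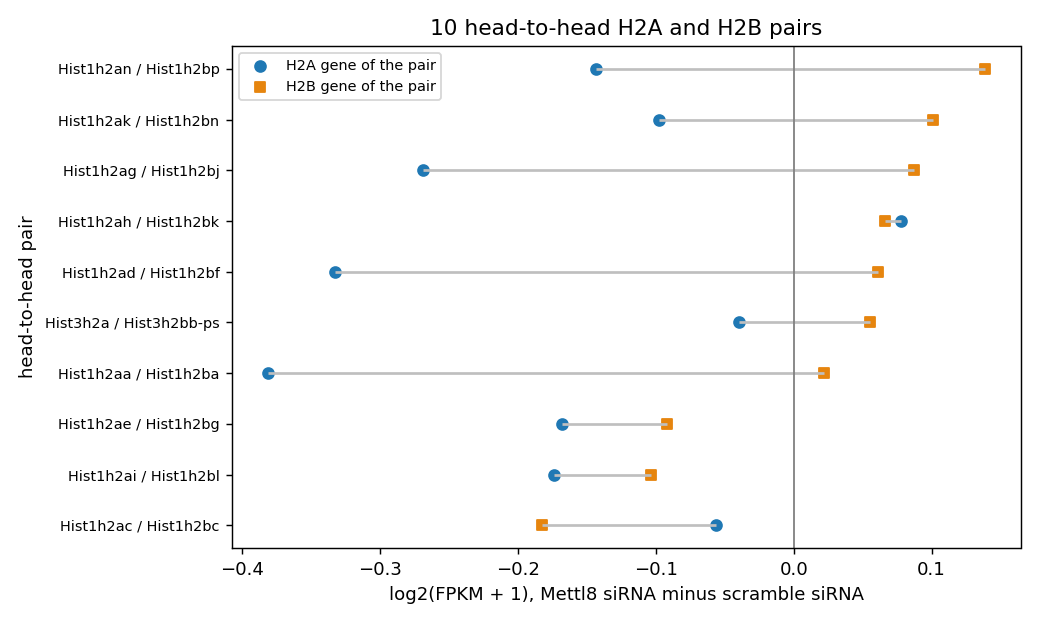
Difference in log2(FPKM + 1), the library labelled Mettl8 siRNA minus the library labelled scramble siRNA, for the H2A and the H2B gene of each head-to-head pair, joined by a line. In 8 of the 10 pairs with both genes measured the H2B value lies above that of its H2A partner. In the whole classes 62.5% of measured H2B genes were higher and 88.2% of measured H2A genes lower.

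The window upstream of a start holds the promoter, which a head-to-head pair shares. RefSeq windows of 250 bases before to 50 after the start on GRCm38.p6 matched 61 of the 70 members. They were searched on both strands for CCAAT, the core of the box bound by NF-Y, and for the TATA box letters TATAAA, motifs that do not overlap each other. CCAAT was found in all 49 windows of H1, H2A, H2B and H3 genes and in 3 of 12 H4 windows. Over all 32851 RefSeq windows it was found in 37.4%, against 85.2% of the 61 members. TATAAA was found in 57.4% of the members and 13.6% of all windows. By class it was found in 4 of 6 H1 windows, 11 of 17 H2A, 8 of 16 H2B, 4 of 10 H3 and 8 of 12 H4. Windows of paired genes overlap and are not independent, and a match of letters does not show that a factor binds. A pair window and an H4 window are given to show the contrast, on the strand of the named gene, with CCAAT or TATAAA on either strand in capitals.
Hist1h2bn, chr13:21753826-21754125, plus strand: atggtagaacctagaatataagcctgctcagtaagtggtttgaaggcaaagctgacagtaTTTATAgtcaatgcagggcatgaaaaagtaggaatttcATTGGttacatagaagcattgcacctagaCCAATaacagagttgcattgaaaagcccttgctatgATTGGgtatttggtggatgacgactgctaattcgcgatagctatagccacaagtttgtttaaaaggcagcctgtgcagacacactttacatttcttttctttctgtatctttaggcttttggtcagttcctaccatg
Hist1h4f, chr13:23551619-23551918, minus strand: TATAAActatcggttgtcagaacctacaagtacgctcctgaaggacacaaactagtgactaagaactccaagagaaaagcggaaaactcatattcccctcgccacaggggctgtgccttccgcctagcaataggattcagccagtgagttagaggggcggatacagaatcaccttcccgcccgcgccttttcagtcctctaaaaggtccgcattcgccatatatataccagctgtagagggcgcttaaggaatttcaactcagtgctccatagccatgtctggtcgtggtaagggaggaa
The Hist1h2bn window held 3 matches to CCAAT, and its TATAAA match was on the opposite strand. The Hist1h4f window held no CCAAT, and its TATAAA match was at the end farthest from the start.

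H3 and H4 form the tetramer at the centre of the nucleosome. Of 12 H3 genes, 11 were lower, with a median of -0.12 and a summed ratio of 0.916 (0.896 to 0.937), from 14621 reads in the library labelled Mettl8 siRNA and 16334 in the library labelled scramble siRNA. The leading H3 gene, Hist1h3c, had 149.2 FPKM in the library labelled Mettl8 siRNA and 157.7 FPKM in the library labelled scramble siRNA. Hist1h3e had 133.1 FPKM against 149.5 FPKM, a ratio of 0.891 (0.848 to 0.935), and Hist1h3g had 101.3 FPKM against 109.3 FPKM. The largest H3 differences were those of Hist2h3b, with 41.0 FPKM against 49.4 FPKM and a ratio of 0.829 (0.740 to 0.929), and Hist1h3h, with 77.2 FPKM against 92.7 FPKM and a ratio of 0.833 (0.762 to 0.912). Hist1h3b was the exception, with 76.1 FPKM against 76.0 FPKM.

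The H3 genes encode proteins that differ by little. Hist1h3a, Hist1h3g, Hist1h3h and Hist1h3i predicted the same protein, and all 4 were lower, with 4344 reads in the library labelled Mettl8 siRNA and 4978 in the library labelled scramble siRNA and a ratio of 0.893 (0.857 to 0.930). The 7 genes Hist1h3b to Hist1h3f, Hist2h3b and Hist2h3c2 predicted another protein, and 6 were lower, with a summed ratio of 0.926 (0.902 to 0.951). The intervals of these groups overlap. Hist2h3c1, whose model predicts a longer protein, had 1.65 FPKM and 1.85 FPKM, and Hist2h3c2 had 0.95 FPKM and 1.24 FPKM, with the library labelled Mettl8 siRNA before the library labelled scramble siRNA.

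All 13 H4 genes were lower, with a median of -0.10. They held 19056 reads in the library labelled Mettl8 siRNA and 21426 in the library labelled scramble siRNA, a ratio of 0.910 (0.892 to 0.928), the lowest of the classes. The interval of the ratio lay below 1 in 7 of them. Hist1h4d led, with a ratio of 0.930 (0.888 to 0.974). Hist1h4k had 200.5 FPKM in the library labelled Mettl8 siRNA and 215.5 FPKM in the library labelled scramble siRNA. Hist1h4f had 198.1 and 223.0 FPKM in the same order. The largest H4 difference was that of Hist1h4i, with 72.8 FPKM against 87.7 FPKM and a ratio of 0.830 (0.775 to 0.890). With equal sums of FPKM, 8 of the 13 were lower, against 24.5% of all measured genes. Since these genes predict 1 protein, their levels are alternatives for the same product, and they ranged in the library labelled Mettl8 siRNA from 4.20 FPKM (Hist1h4m) to 318.0 FPKM (Hist1h4d). Other genes held 100% of the coding windows of Hist1h4m and 42.2% of those of Hist1h4d. Hist1h4n, also at 100%, had 91.5 FPKM there. How reads of several copies were treated is not given, so this range is uncertain.

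By cluster, Hist1 held 85.8% of the histone reads in the library labelled Mettl8 siRNA and 86.1% in the library labelled scramble siRNA, and 39 of its 51 measured genes were lower. In Hist2, 7 of 9 were lower, with a summed ratio of 0.987 (0.960 to 1.01) that rests mainly on Hist2h2bb. The other Hist2 genes with over 5 FPKM were Hist2h3b, Hist2h2ac with 34.8 and 35.6 FPKM, Hist2h4 with 22.3 and 23.7 FPKM and Hist2h2ab with 8.82 and 9.34 FPKM, each lower in the library labelled Mettl8 siRNA, given before the library labelled scramble siRNA. Hist2h2aa2 had 2.93 and 2.99 FPKM in the same order. In Hist3, Hist3h2a had 12.97 FPKM in the library labelled Mettl8 siRNA and 13.4 FPKM in the library labelled scramble siRNA, Hist3h2ba had 8.55 and 9.16 FPKM, and the pseudogene Hist3h2bb-ps had 2.47 and 2.34 FPKM. Hist4h4, the lone Hist4 gene, had 16.1 FPKM in the library labelled Mettl8 siRNA and 19.2 FPKM in the library labelled scramble siRNA, a ratio of 0.839 (0.779 to 0.904).

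Deposited gene lengths of 1000 bases or more reach far past the coding sequence. They belonged to 10 members, Hist1h1c, Hist2h3c1, Hist2h3c2, Hist2h4, Hist3h2a, Hist4h4, Hist1h2be, Hist1h2bq, Hist1h2br and Hist2h2be. The 7 measured ones were all lower. The summed ratio over all 10 was 0.912 (0.887 to 0.939), against 0.9498 (0.940 to 0.959) over the shorter members. Hist1h2be, the longest by deposited length with 4374 bases, had 5.97 FPKM in the library labelled Mettl8 siRNA and 6.29 FPKM in the library labelled scramble siRNA. The FPKM of such a gene averages over bases that the stem-loop mRNA lacks, so these levels are not comparable with those of the short genes.

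GC content moved with the differences among the other measured protein-coding genes. Their median difference was 0.07 at 30 to 40% GC of the transcript (615 genes) and 0.00 at 50 to 55%. It was -0.07 at 60 to 65% (383 genes, 72.3% lower) and -0.13 at 65 to 80% (41 genes, 68.3% lower). The histone coding sequences are rich in GC, with medians of 59.6% in H1, 69.4% in H2A, 63.1% in H2B, 67.4% in H3 and 65.7% in H4. Over 62 measured members with a coding model, Spearman's rho of the difference with coding GC was -0.35, a description of genes that share libraries and sequence. By class it was -0.60 in H1 (6 genes), -0.18 in H2A (16), -0.20 in H2B (15), -0.61 in H3 (12) and 0.48 in H4 (13). Coding GC of members and transcript GC of other genes are different measures. At like GC, the values of H2B and H4 lay apart, which could not be tested. Between 62 and 66% coding GC, 6 of 10 H2B genes were higher with a median of 0.05, whereas all 8 H4 genes were lower with a median of -0.14. In this bin 4 H2B genes were lower. Beyond these values, the part of GC content in the lower histone levels was not tested.

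**Figure D4:**
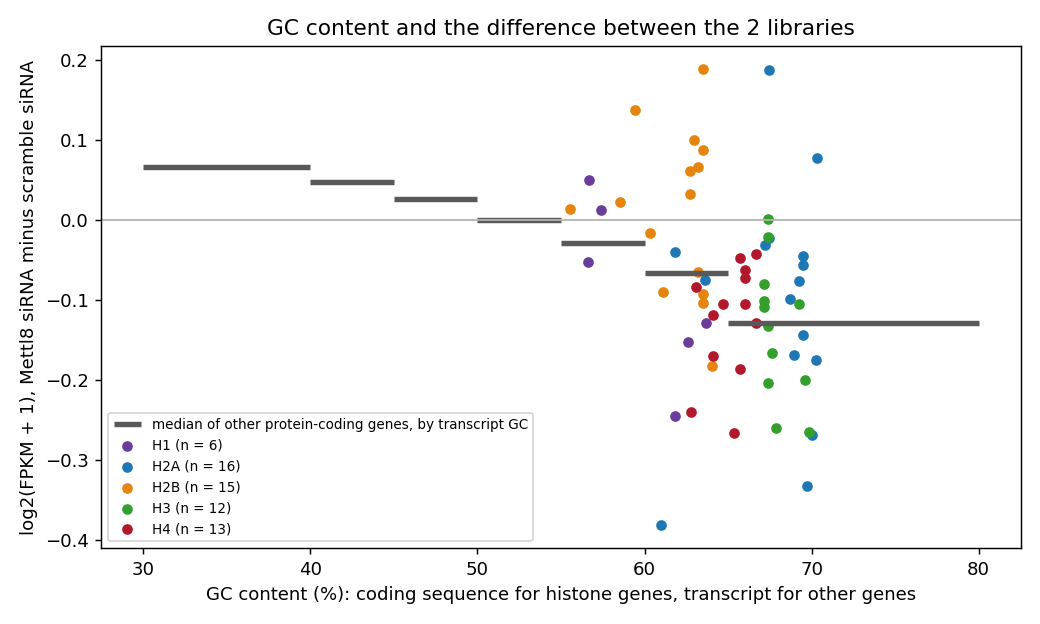
Difference in log2(FPKM + 1), the library labelled Mettl8 siRNA minus the library labelled scramble siRNA, against GC content in percent. The line gives the medians of other protein-coding genes by transcript GC, from 0.07 at 30 to 40% to -0.13 at 65 to 80%, and the points are histone genes by coding GC, with H2B points mostly above H4 points between 62 and 66%.

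Other genes of the table lie on top of the members, and their values touch the levels given above. In all, 26 members overlapped another row of the table. Short predicted miRNA genes of 129 to 144 bases numbered 17, all on the opposite strand and each overlapping a different one of the 20 H2A genes, 15 wholly inside it and 2 in part. For example, Gm44484 inside Hist1h2ab had 152.1 FPKM in the library labelled Mettl8 siRNA and 157.3 FPKM in the library labelled scramble siRNA, against 72.3 and 74.6 FPKM for Hist1h2ab. Of these rows, 15 had a higher FPKM than their H2A gene in the library labelled scramble siRNA, and 15 differed between the libraries in the same direction as it. The antisense gene Gm20628 spans Hist2h2bb and Hist2h3b. It held 7990 reads in the library labelled Mettl8 siRNA and 8209 in the library labelled scramble siRNA, against sums of 7961 and 8186 for those members. The lincRNA Gm42743, which overlaps Hist2h2bb on the same strand, had 145.1 and 143.3 FPKM in the same order. It held 6098 and 6164 reads, against 7405 and 7500 for Hist2h2bb. How many of these reads were counted in both rows is not known. Without a stated strand setting, reads of a histone gene and of an overlapping gene on the opposite strand cannot be told apart. A strand setting would not part genes on the same strand, such as Hist2h2bb and Gm42743.

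Near-identical copies are the other source of uncertain levels. Each member's M21 coding sequence was split into all windows of 50 bases, and a window found in a gene elsewhere was counted as shared. Pseudogenes were split over the whole transcript. The median share was 73.4% over the 70 members, and by class it was 10.9% in H1, 83.9% in H2A, 74.1% in H2B, 84.7% in H3 and 70.3% in H4. Of 10 measured members with under 25% shared, 7 were lower, and of 19 with at least 85% shared, 14 were lower. The summed ratio, unmeasured members included, was 0.985 (0.969 to 1.00) under 25% and 0.923 (0.900 to 0.946) from 85% up. Hist1h1a, Hist1h1b, Hist1h1t, Hist2h2bb, Hist2h2be and Hist4h4 had no shared coding window, and of the measured ones Hist1h1t and Hist4h4 were lower. Hist1h4d shared 42.2%. Most single members of the core classes are therefore uncertain.

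The factors that make and process histone mRNA were compared as a list, all 26 measured. Of these, 15 (57.7%) stood higher and 11 lower, against 54.1% higher over all measured genes. Their median was 0.04, against 0.01 over all measured genes. None of them was 1.5-fold apart. Slbp, which binds the stem-loop, had 8.85 FPKM in the library labelled Mettl8 siRNA and 7.84 FPKM in the library labelled scramble siRNA. Zfp473, whose human counterpart ZFP100 links SLBP to the U7 particle, had 2.12 FPKM against 1.82 FPKM. Of the U7 proteins, Lsm10 had 4.04 FPKM against 4.96 FPKM, the lowest difference of the list at -0.24, and Lsm11 had 1.33 FPKM against 1.39 FPKM. Casp8ap2, which encodes FLASH, had 10.3 FPKM against 9.48 FPKM, and the cleavage enzyme Cpsf3 had 16.8 FPKM against 16.7 FPKM. Npat, the cyclin E-dependent coactivator of histone transcription, had 8.17 FPKM against 8.18 FPKM, and Hinfp, an activator of H4 genes, had 4.29 FPKM against 3.99 FPKM. Of the genes of decay, Upf1 had 10.4 FPKM against 11.2 FPKM, Zcchc6 5.93 FPKM against 6.32 FPKM and Eri1 5.35 FPKM against 4.82 FPKM.

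Histone chaperones carry new histones to chromatin. All 14 chaperones were measured, and 10 of them (71.4%) stood higher and 4 lower, against 63.2% higher among protein-coding genes of at least 10 FPKM. They had a median of 0.05 and a range of -0.10 to 0.13. Asf1a, which hands H3 and H4 to the assembly factors, had 10.4 FPKM in the library labelled Mettl8 siRNA and 9.45 FPKM in the library labelled scramble siRNA. Its paralog Asf1b had 17.7 FPKM against 16.2 FPKM. The CAF-1 subunits Chaf1a and Chaf1b had 20.3 FPKM against 20.8 FPKM and 10.6 FPKM against 10.6 FPKM. Hat1, which acetylates new H4, had 76.4 FPKM against 73.4 FPKM, and Nasp, a carrier of H3 and H4, had 32.4 FPKM against 33.04 FPKM. Nap1l1, a carrier of H2A and H2B, had 49.7 FPKM against 53.2 FPKM, the lowest difference of the chaperones. None of the chaperones was 1.5-fold apart.

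The replication-independent variants are the genes most like the family in protein, made throughout the cycle from mostly polyadenylated mRNA. Of 11, all measured, 4 stood higher (36.4%) and 7 lower, against 54.1% higher and 45% lower over all measured genes. Their median was -0.06, against 0.01 over all measured genes, with a range of -0.22 to 0.20. Of 6 variants of H2A, 5 were lower and H2afz was higher. H2afz had 135.9 FPKM in the library labelled Mettl8 siRNA and 118.2 FPKM in the library labelled scramble siRNA, the highest difference of the list. H2afx, whose mRNA is known in both a stem-loop and a polyadenylated form, had 119.7 FPKM against 130.1 FPKM. H3f3a and H3f3b, which encode H3.3, had 27.99 FPKM against 27.2 FPKM and 75.95 FPKM against 74.3 FPKM. Both were higher, but their ratio intervals, 0.976 to 1.09 and 0.987 to 1.06, span 1. Of 12 replication-dependent H3 genes, 11 were lower, 5 of them with an interval below 1. The difference between these groups of genes was not tested.

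**Figure D5:**
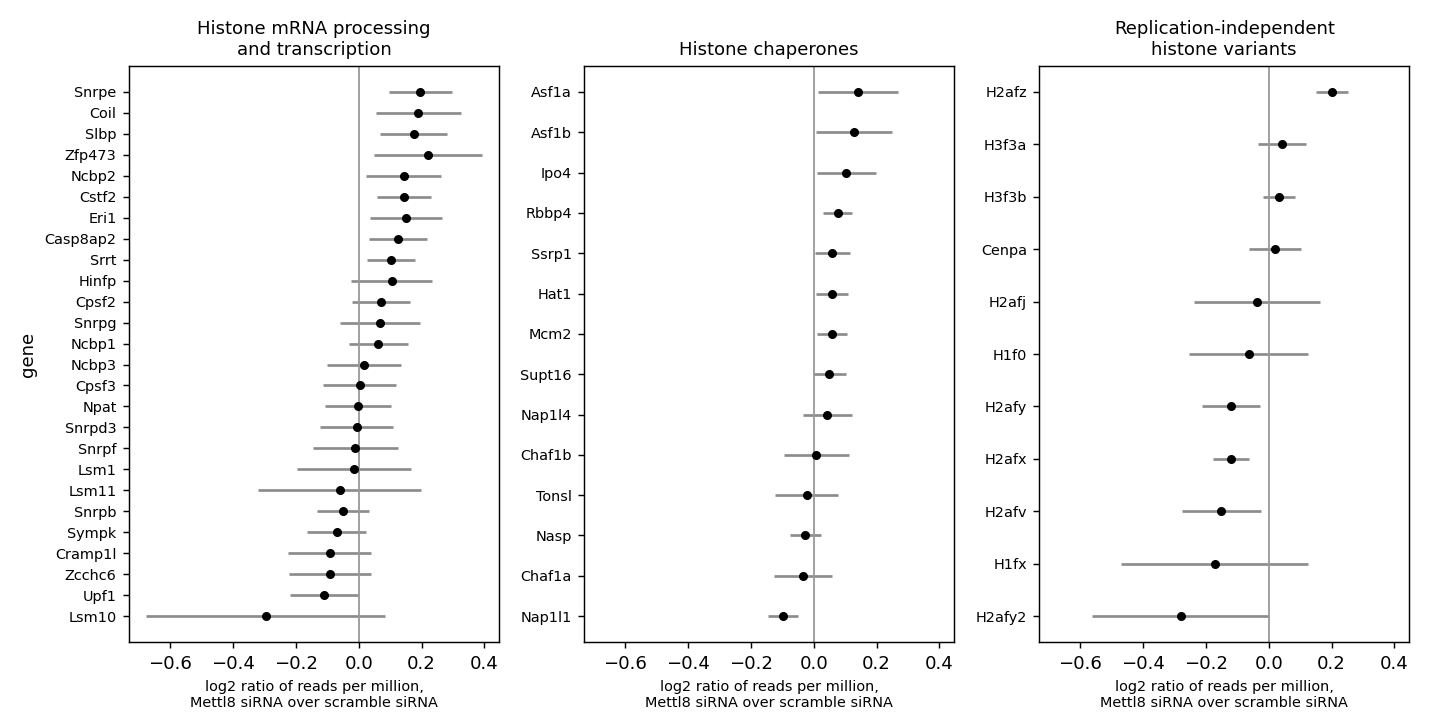
Log2 ratio of reads scaled to depth, the library labelled Mettl8 siRNA over the library labelled scramble siRNA. Panels show the processing and transcription factors, the chaperones and the replication-independent variants. Points are genes and lines are 95% intervals that cover counting error only. On log2(FPKM + 1) the list medians are 0.04, 0.05 and -0.06, against -0.09 for the replication-dependent histone genes, which are not drawn.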

How the data were processed

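RNA of 1 library per group was sequenced, and the authors deposited 1 table of FPKM values for 50508 genes, rounded to 2 decimals, with a length for each gene. The submitters' processing notes name the aligner STAR 2.4.0i, the counter featureCounts 1.5.0-p1 and the build mm10. How strand and reads of several genes were handled, and with which annotation, is not given in the sources used here. The deposited length equalled the exon union in GENCODE M21 for 48 of the 70 members, and M21 gave positions, gene types and sequences.

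FPKM times length fell on whole reads in 100% of 3494 values in the library labelled Mettl8 siRNA and of 3064 in the library labelled scramble siRNA, for genes under 400 bases with under 30 reads, within 0.005 reads beyond rounding. The denominators were 27.8 and 28.5 M reads, and the genes of the table held 21.4 and 22.2 M, in the same order. Reads of overlapping genes stand in several rows. Rebuilt reads were used for exact Poisson intervals of levels and Clopper-Pearson intervals of ratios at 95%, which cover counting error only, as PCR copies of a molecule were not told apart.

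Differences were taken on log2(FPKM + 1) for genes with a mean of at least 1 FPKM. With no replicates, no test and no p-value could be had. Named members are the 3 with the highest level in each class, the 5 largest differences each way with at least 100 reads, all of Hist2 to Hist4, long models and testis genes, and single members beyond this were chosen after their values were seen. The members and lists were chosen with earlier results of these data known. The alternatives were another pseudocount, other filters, 3 scalings, short members only and other folds, and members with under 50% shared coding windows, added after seeing the data. The steps were tested on simulated data with 200 changed genes. Python 3.11.15 with numpy 2.4.6, pandas 2.3.3 and scipy 1.17.1 was used.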

Additional observations from a re-analysis of the deposited data

How the results depend on the processing

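Scaling decided the sign of the family median. With both libraries rescaled to the same sum of FPKM, it was 0.0035 with 31 of 64 genes lower and a summed ratio of 1.01. With that scaling 24.5% of all measured genes were lower, with a median of 0.09. The family median thus stayed below that of all measured genes. The class medians were then -0.0135 in H1, 0.00996 in H2A with 8 lower, 0.12 in H2B with 3 lower, -0.0428 in H3 and -0.0113 in H4 with 8 lower. The class ratios were 1.02 in H1, 0.994 in H2A, 1.06 in H2B, 0.977 in H3 and 0.971 in H4. With equal reads in protein-coding genes, the family median was -0.10 and the ratio 0.936. The H1 median was -0.13 with a mean of at least 5 FPKM and -0.0519 for members under 1000 bases. Among the 16 measured members with under 50% shared coding windows, chosen after seeing the data, 11 were lower, with a summed ratio of 0.961. The lower ones were 4 of H1, 3 of H2A, 1 of H2B and 3 of H4, and no H3 gene was left. With 0.32 on the log2 scale as the limit in place of 1.5-fold, 2 members were apart, Hist1h2aa (-0.38) and Hist1h2ad (-0.33). The ratio interval of Hist1h2aa, 0.424 to 1.16, spans 1. The share of all measured genes at this limit was not computed, so the count has no comparison. The cause of the other shifts was not tested. The H2B median was 0.0141 with the median of all genes set to 0 and 0.0147 with equal reads in protein-coding genes. Of 133 values under alternatives, 107 moved by less than counting error or 1.5 times, and 22 moved by more. The other 4, whose main value lay beyond counting error, changed direction, all with equal sums of FPKM. The H2B ratio, whose main interval spans 1, is not among these 4. It passed from 0.998 to 1.06 with equal sums of FPKM and to 1.01 for members with under 50% shared coding windows. The 38 medians among the 107 kept their sign, which the limit of counting error fixed in advance for all but H2B. No paired analysis was possible because each group has 1 library. Culture-to-culture spread is unknown, and members under 50 reads are limited by counting error.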
